A study of Mus musculus with 6 samples.

Results

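The glycolysis and hypoxia response genes are 34 genes that encode glucose and lactate transporters, the enzymes from hexokinase to lactate dehydrogenase, the kinases that set the flow of sugar carbon, and the oxygen sensing machinery with some of its target genes. They were measured in iTreg cells, regulatory T cells made *in vitro* from naive CD4+ T cells. The members were chosen by name: 33 of the 34 genes had a probe of that name on the array, with 60 of the 41174 probes, and each gene was read from its brightest probe over all arrays. The remaining name, Pkm2, has no probe. The array lists this gene as Pkm, and its probes are described apart from the members.

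The series compared miR-31 fl/fl CD4Cre mice (cKO), in which Cre driven by *CD4* regulatory sequence deletes the microRNA gene miR-31 in T cells, with miR-31 fl/fl control mice, which carry the floxed alleles without Cre. The mice were 6 weeks old and of the C57BL/6 background. Naive T cells of the spleen were sorted as CD4+CD25-Foxp3gfp-CD62Lhi, a gate that names a Foxp3gfp reporter, and the labels do not state whether every mouse carried that reporter. The cells of both groups were given IL-2 at 40 ng ml−1, TGF-β1 at 5 ng ml−1, soluble anti-CD28 at 2 μg ml−1 and anti-CD3 bound to the plate at 5 μg ml−1, per the labels, and the arrays were made from cells of day 4. There were 3 arrays for cKO and 3 for control, each from 0.5 μg of RNA. CD4Cre acts during thymic development, also in cells that become CD8 T cells, so the deletion was already present when the cultures began. The comparison asks how the mRNA profile of iTreg cells differs when miR-31 is absent. The arrays hold no probe for miR-31, so its loss was not checked here. The deleted microRNA is shown because its seed (bases 2 to 8, in capitals) is the stretch that pairs with target mRNAs. It lies at chr4:88910614-88910635 on the minus strand of GRCm38.p6, and the sequence is that of RefSeq.

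mmu-miR-31-5p: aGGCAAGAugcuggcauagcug

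Glycolysis splits glucose into pyruvate and yields ATP without oxygen, and lactate dehydrogenase turns the pyruvate into lactate so that the pathway can go on. Activated T cells raise this pathway strongly when they begin to divide, and effector T cells depend on it more than regulatory T cells do. The hypoxia-inducible factor Hif1a is a transcription factor whose protein is hydroxylated by the prolyl hydroxylases of the Egln family and then degraded when oxygen is present. When it is stable it switches on most glycolytic genes and others such as Vegfa, Bnip3 and Egln3, the last of which limits the factor in turn.

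All 33 members were well above background on all 6 arrays. Levels are given as the log2 processed signal minus the 75th percentile of the same array, so a level of 0 equals that percentile, and differences are cKO minus control on this log2 scale. A level belongs to its probe and is compared between arrays and not between genes. Each array had 45018 spots, 49.3% to 57.7% of the non-control spots were well above background, and 22281 probes passed the filter of at least 3 such arrays and were tested with limma. Across tested probes, any pair of cKO arrays had a Pearson correlation of 0.974 to 0.985, any pair of controls one of 0.984 to 0.989, and a cKO array paired with a control one of 0.948 to 0.984. Slide 1 carries all cKO arrays together with control array 1, and slide 2 carries the remaining controls.

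Most of these genes had higher levels in cKO iTreg cells. Of the 33 members, 31 had a positive difference, and 45.6% of all tested probes did. The cKO arrays lay above every control array for 25 members (16.2% of all tested probes) and below every control array for 1 member (20.4% of all tested probes). At an unadjusted p under 0.05 in limma, 24 members were higher in cKO, where 11.7% of all tested probes were, and 0 were lower, where 11.3% were (23.0% in either direction). The median difference of the members was 0.56 and that of all tested probes −0.04. After Benjamini-Hochberg adjustment over all tested probes, 0 members had an adjusted p under 0.05, and 29 probes of the whole array did (0.130%). The adjusted p of the 24 members lay between 0.069 and 0.217, and with 3 arrays against 3 an exact permutation test of one gene cannot give a p below 0.10. The count of 24 fell to 12 without cKO array 2 (10% of all tested probes were then higher at that threshold), to 14 without cKO array 3 (10.2%) and to 13 without control array 3 (7.66%). With normexp background correction before scaling to the 75th percentile, which moved the median over all tested probes from −0.04 to 0.10, the median of the members was 0.29, 6 members were higher at an unadjusted p under 0.05 (4.99% of all tested probes), and Pfkl, Tpi1, Pgam1 and Eno1 turned negative. The genes with an unadjusted p under 0.05 in each of the 6 fits that left out an array were Slc2a3, Slc16a3, Aldoc, Pfkfb4, Pgm2, Hif1a, Egln3 and Ddit4. In bulk RNA, a larger share of cells that use a gene and more of its mRNA per cell cannot be told apart.

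**Figure D1:**
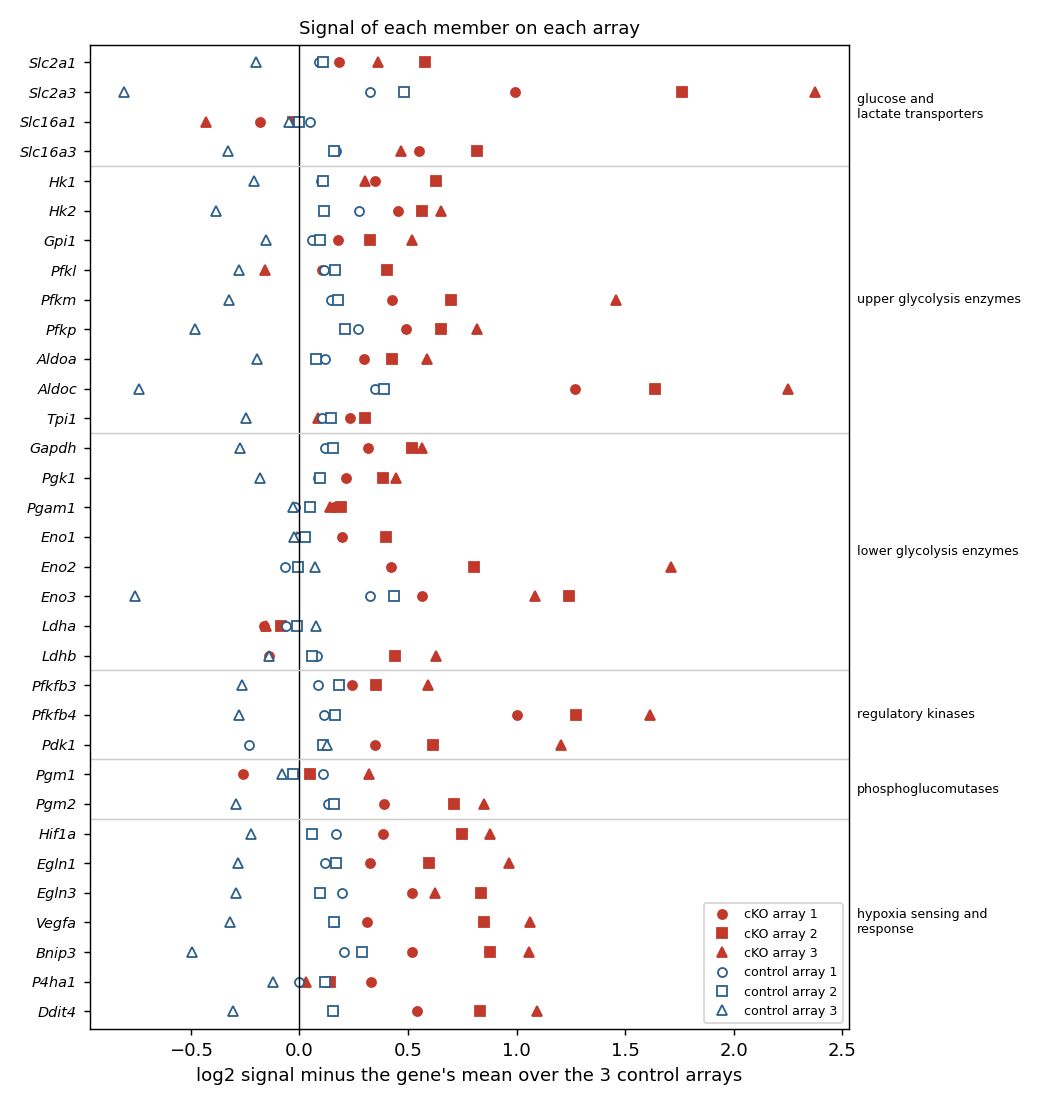
Each row is a gene, and each point is the log2 signal on one array minus the mean of that gene over the 3 control arrays (filled red, cKO; open blue, control; circle, square and triangle mark arrays 1, 2 and 3). For 25 of the 33 genes all red points lie to the right of all blue points, and the open triangle of control array 3 is the lowest point of 27 genes.

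Of the 4 transporters, 3 were higher in cKO at an unadjusted p under 0.05 (11.7% of all tested probes). The glucose transporter Slc2a3 (GLUT3, probe at chr6:122678075-122678134, mm9, minus strand) takes up glucose with high affinity in T cells and neurons. Its log2 level was 4.87, 5.64 and 6.25 on the cKO arrays and 4.20, 4.36 and 3.07 on the control arrays. All 3 cKO arrays lay above the controls, control array 3 lay more than 1 below the other controls, and the fold difference was 3.28 (95% confidence interval 1.50 to 7.20, adjusted p = 0.144). Slc2a1 (GLUT1, chr4:118809864-118809923) is the main glucose transporter of dividing cells. Its level was 4.83, 5.23 and 5.01 in cKO and 4.74, 4.76 and 4.45 in control. The groups did not overlap, but cKO array 1 was close to the highest controls, and the fold was 1.30 (1.00 to 1.68, adjusted p = 0.216). Slc16a3 (MCT4) exports lactate from glycolytic cells, and its level was 6.25, 6.52 and 6.17 in cKO and 5.87, 5.86 and 5.37 in control. Here too the groups were apart, with a fold of 1.53 (1.13 to 2.07, adjusted p = 0.156). The other monocarboxylate transporter, Slc16a1 (MCT1), which moves lactate in either direction, had a difference of −0.22 ± 0.13 (SE), and the groups overlapped. Of its other tested probes, one had levels of 1.65, 1.69 and 1.41 in cKO and 2.18, 2.02 and 1.97 in control, so that the groups were apart with cKO below, and a difference of −0.47 ± 0.12 (unadjusted p = 0.00795 in limma, adjusted p = 0.138). The remaining probe had a difference of −0.25 with overlapping groups.

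The upper steps, from hexokinase to triose phosphate isomerase, had 9 genes. Of these, 7 were higher in cKO at an unadjusted p under 0.05 (11.7% of all tested probes). The hexokinases trap glucose in the cell by phosphorylation. Hk1, the widely expressed form, had levels of 5.45, 5.73 and 5.40 in cKO and 5.20, 5.21 and 4.89 in control (fold 1.34, 1.05 to 1.72, adjusted p = 0.184). Other tested Hk1 probes had differences of 0.20 and 0.37 with overlapping groups, and of 0.45 and 0.43 with cKO above. Hk2, the form that is induced in activated cells, had levels of 2.71, 2.82 and 2.91 in cKO and 2.53, 2.37 and 1.87 in control (fold 1.48, 1.08 to 2.02, adjusted p = 0.176). Both hexokinases were lowest on control array 3. Gpi1, which converts glucose 6-phosphate to fructose 6-phosphate, had levels of 7.73, 7.88 and 8.07 in cKO against 7.61, 7.65 and 7.40 in control (fold 1.27, 1.01 to 1.59, adjusted p = 0.209). The other tested Gpi1 probe had a difference of 0.32 with overlapping groups.

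Phosphofructokinase commits sugar to glycolysis, and its 3 subunit genes differed. The liver-type Pfkl had levels of 2.67, 2.97 and 2.41 in cKO and 2.68, 2.73 and 2.29 in control, groups that overlapped, with a fold of 1.08 (0.784 to 1.50, adjusted p = 0.722). The muscle-type Pfkm had levels of 2.17, 2.44 and 3.20 in cKO and 1.89, 1.92 and 1.42 in control (fold 1.81, 1.10 to 2.98, adjusted p = 0.182). The platelet-type Pfkp had levels of 3.53, 3.69 and 3.86 in cKO and 3.31, 3.25 and 2.56 in control (fold 1.58, 1.08 to 2.31, adjusted p = 0.182). So the muscle-type and platelet-type subunits were apart between the groups and the liver-type subunit was not, and these differences between subunits were not tested against each other.

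The aldolases cleave fructose 1,6-bisphosphate into triose phosphates. Aldoc (chr11:78139964-78140023, plus strand), the form known from brain, had the largest difference of the members, 1.72 ± 0.39 (SE). Its levels were 4.86, 5.23 and 5.84 in cKO and 3.94, 3.98 and 2.85 in control, a fold of 3.31 (1.72 to 6.35, adjusted p = 0.12). Every cKO array lay well above every control array. Aldoa, the main aldolase of most tissues, had levels of 9.05, 9.18 and 9.34 in cKO and 8.87, 8.83 and 8.56 in control (fold 1.35, 1.08 to 1.70, adjusted p = 0.166). Tpi1, which interconverts the triose phosphates, had a difference of 0.21 ± 0.14 with overlapping groups.

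The lower steps, from glyceraldehyde phosphate to lactate, had 8 genes tested of 9 named. Of those tested, 4 were higher in cKO at an unadjusted p under 0.05 (11.7% of all tested probes). Gapdh, which oxidizes glyceraldehyde phosphate and is often used as a reference gene, had levels of 8.27, 8.47 and 8.52 in cKO and 8.07, 8.11 and 7.68 in control (fold 1.38, 1.07 to 1.79, adjusted p = 0.175). Pgk1, which makes the first ATP of the pathway, had levels of 7.95, 8.12 and 8.18 in cKO and 7.82, 7.83 and 7.55 in control (fold 1.28, 1.03 to 1.58, adjusted p = 0.19). Both Pgk1 probes are placed on chromosome 3 by the array's annotation while RefSeq places the gene on chromosome X, so their signal may be shared with a near-identical copy. The enolases make phosphoenolpyruvate. Eno2, the neuronal form, had levels of −1.21, −0.83 and 0.08 in cKO and −1.70, −1.64 and −1.56 in control (fold 1.97, 1.14 to 3.39, adjusted p = 0.175). Eno3, the muscle form, had levels of 4.72, 5.40 and 5.24 in cKO and 4.48, 4.59 and 3.40 in control (fold 1.95, 1.07 to 3.57, adjusted p = 0.198). The cKO arrays lay above the controls for both, with cKO array 3 standing out for Eno2 and control array 3 for Eno3. The common enolase Eno1 had a difference of 0.19 ± 0.13 with overlapping groups, and phosphoglycerate mutase Pgam1 one of 0.16 ± 0.09 with cKO above control on every array (adjusted p = 0.314).

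Ldha was 1 of the 2 members with a negative difference, beside Slc16a1. Ldha, the subunit that favours lactate formation, had levels of 7.69, 7.77 and 7.70 in cKO and 7.79, 7.84 and 7.93 in control. The groups did not overlap, with cKO below, yet the fold was 0.915 (0.779 to 1.07, adjusted p = 0.425), and a further Ldha probe had a difference of 0.07 with overlapping groups. Ldhb, the subunit that favours pyruvate, had a difference of 0.30 ± 0.21 with overlapping groups.

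Pyruvate kinase is outside the rule because its probes carry the name Pkm, and they disagreed with each other. The brightest (chr9:59526907-59526966) had levels of 5.92, 6.78 and 5.93 in cKO and 6.42, 6.56 and 6.25 in control, a difference of −0.21 with overlapping groups (adjusted p = 0.634). A neighbouring probe (chr9:59526759-59526818) had a difference of 0.29 (adjusted p = 0.333). The probe at chr9:59520400-59520459, drawn from another transcript record, had levels of 2.48, 1.57 and 2.87 in cKO and 0.96, 0.90 and 0.69 in control, a difference of 1.46 (adjusted p = 0.12). No single value of this gene is therefore given.

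The regulatory kinases all lay above the controls on their brightest probes. Pfkfb4 (chr9:108934627-108934686, plus strand), which makes the phosphofructokinase activator fructose 2,6-bisphosphate, had the smallest p of the members. Its levels were 0.03, 0.30 and 0.64 in cKO and −0.86, −0.81 and −1.25 in control, a fold of 2.45 (1.75 to 3.43, adjusted p = 0.069). The lowest cKO array, 0.03, lay above the highest control, −0.81. Pfkfb3, the related enzyme of most dividing cells, had levels of 3.49, 3.60 and 3.84 in cKO and 3.33, 3.43 and 2.98 in control (fold 1.32, 1.00 to 1.74, adjusted p = 0.217). The other tested Pfkfb3 probes had differences of 0.04 and 0.34, with overlapping groups. Pdk1 limits the entry of pyruvate carbon into the TCA cycle by inactivating pyruvate dehydrogenase. It had levels of 2.77, 3.04 and 3.63 in cKO and 2.19, 2.53 and 2.55 in control (fold 1.65, 1.10 to 2.48, adjusted p = 0.176). Control array 1, not control array 3, was the lowest for Pdk1.

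The phosphoglucomutases link glucose 6-phosphate with glycogen. The array's symbols Pgm1 and Pgm2 are exchanged in the current RefSeq table, and the array's names are kept here. The gene listed as Pgm2, now Pgm1 (chr4:99659754-99659813), had levels of 4.08, 4.40 and 4.54 in cKO and 3.82, 3.85 and 3.40 in control (fold 1.57, 1.15 to 2.13, adjusted p = 0.15). The gene listed as Pgm1, now Pgm2, had a difference of 0.04 ± 0.17, groups that overlapped, and a sign that turned in some alternatives.

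Of the oxygen sensing genes and their targets, 6 of 7 were higher in cKO at an unadjusted p under 0.05 (11.7% of all tested probes). The median difference of the 7 was 0.67. Hif1a (chr12:75047269-75047329, plus strand) had levels of 2.57, 2.93 and 3.06 in cKO and 2.35, 2.24 and 1.96 in control (fold 1.59, 1.19 to 2.13, adjusted p = 0.137). Egln1 is the main prolyl hydroxylase that marks the factor for degradation. Its levels were 2.64, 2.91 and 3.28 in cKO and 2.43, 2.48 and 2.03 in control (fold 1.55, 1.09 to 2.20, adjusted p = 0.174). Egln3, a hydroxylase that the factor itself induces, had levels of 4.56, 4.88 and 4.67 in cKO and 4.24, 4.14 and 3.75 in control (fold 1.58, 1.20 to 2.09, adjusted p = 0.131). By their brightest probes, the mRNAs of the factor and of both hydroxylases were thus higher on every cKO array. The other tested Egln1 probe had a difference of 0.60 with overlapping groups. Hif1a protein, on which oxygen acts, was not measured.

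Of the targets, Vegfa, the growth factor of blood vessels, had levels of 2.69, 3.23 and 3.44 in cKO and 2.54, 2.54 and 2.06 in control (fold 1.67, 1.12 to 2.49, adjusted p = 0.17). Bnip3, which directs mitochondria to autophagy, had levels of 5.20, 5.56 and 5.74 in cKO and 4.89, 4.97 and 4.19 in control (fold 1.76, 1.15 to 2.69, adjusted p = 0.165). Ddit4, an inhibitor of mTORC1 that hypoxia and other stresses induce, had levels of 6.17, 6.46 and 6.72 in cKO and 5.78, 5.78 and 5.32 in control (fold 1.77, 1.27 to 2.47, adjusted p = 0.126). All 3 were lowest on control array 3 and highest on cKO array 3. P4ha1, a collagen prolyl hydroxylase subunit, had a difference of 0.17 ± 0.13 with overlapping groups.

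**Figure D2:**
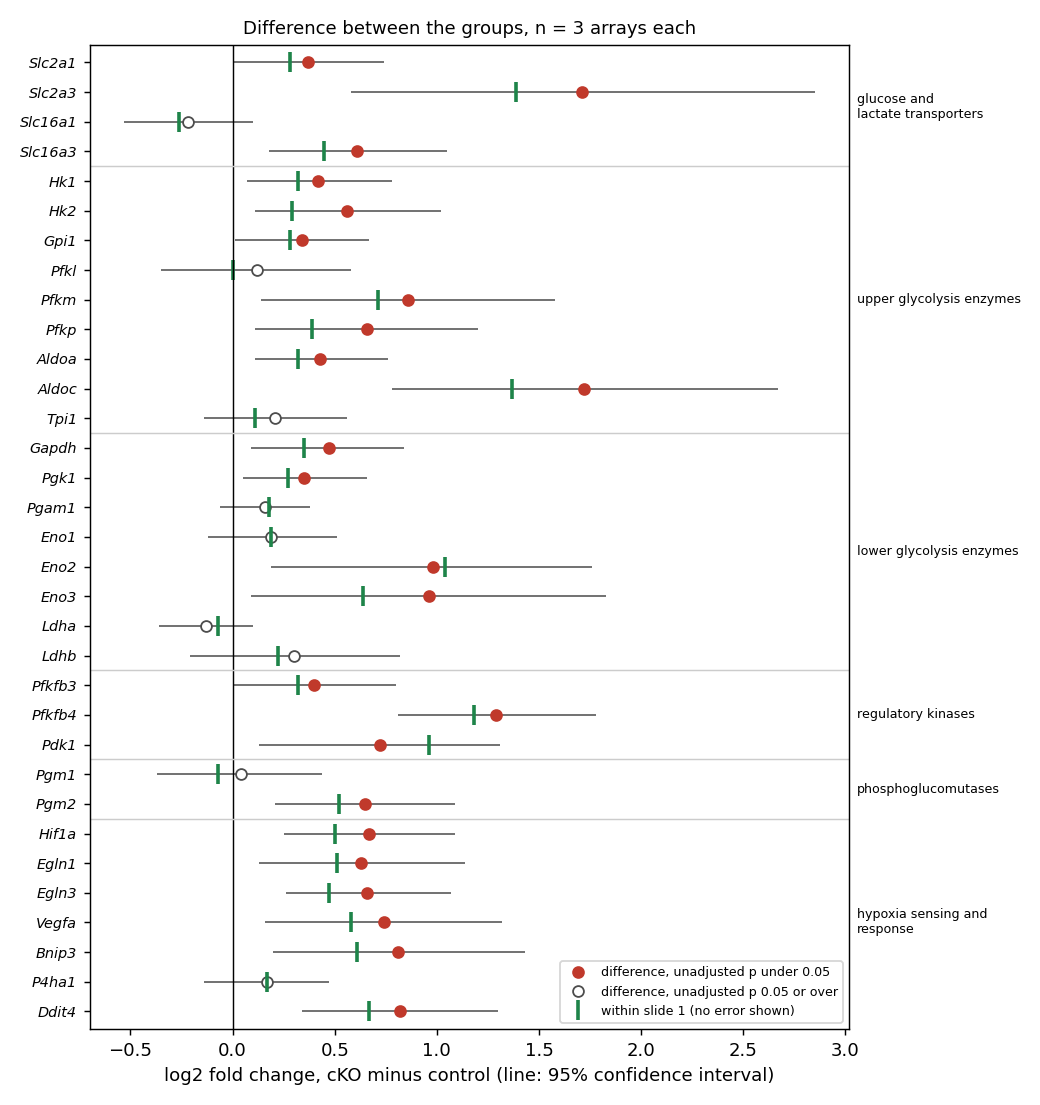
Differences of the 33 members on the log2 scale (cKO minus control, 3 arrays each) with 95% confidence intervals from limma, red where the unadjusted p is under 0.05, and green bars for the difference within slide 1. Of the differences, 31 are positive, with Aldoc (1.72), Slc2a3 (1.71) and Pfkfb4 (1.29) farthest to the right, and most green bars lie nearer to 0 than the red points.

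Several members have further probes, which were not used by the rule. Of the 25 other tested probes of members, 24 had the direction of the brightest probe, 1 (Ldha) had the opposite direction, and 0 differed from it by over 1 on the log2 scale. For example, the other Aldoc probe had a difference of 1.86, the other tested Slc2a3 probe 2.05, the other Pdk1 probe 0.58, and the 3 other Vegfa probes 0.97, 0.44 and 0.88. These probes read the same RNA samples and are not further replicates.

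The members also varied in the same direction among the arrays of one group. The median deviation of the members from their own mean over the 6 arrays was 0.08, 0.30 and 0.37 on cKO arrays 1, 2 and 3, and −0.12, −0.12 and −0.47 on control arrays 1, 2 and 3. The same median over all tested probes stayed between −0.02 and 0.05. Of the 33 members, 21 had their highest value on cKO array 3 and 9 on cKO array 2, and 27 had their lowest value on control array 3. The medians of cKO array 1 and control array 1 lay closer to each other than the highest and lowest arrays within either group. With cKO array 3 and control array 3 both left out, the median difference of the members was 0.32 and 12 members were higher at an unadjusted p under 0.05, where 8.71% of all tested probes were.

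**Figure D3:**
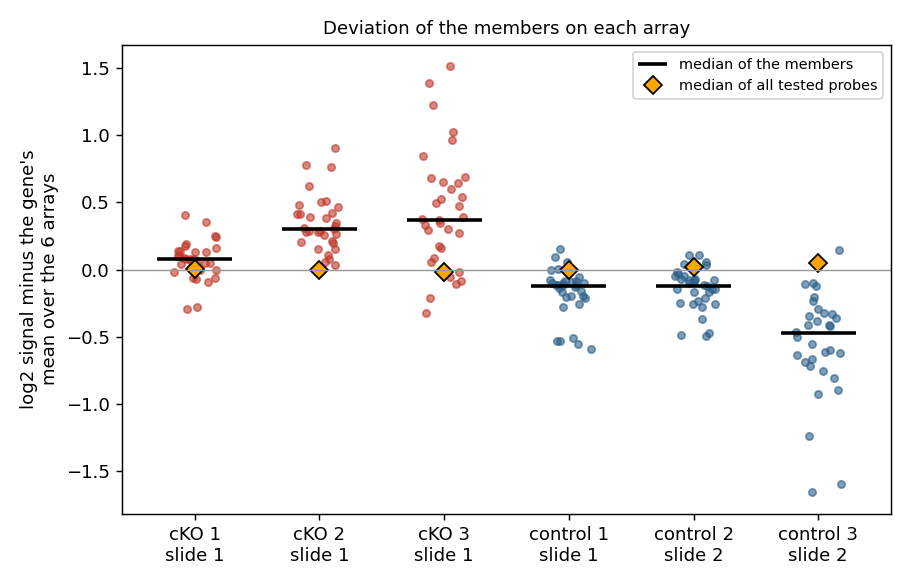
Each point is one of the 33 members on one array, as log2 signal minus the mean of that gene over the 6 arrays. Black bars are the medians of the members, from −0.47 on control array 3 to 0.37 on cKO array 3, and orange diamonds, the medians of all tested probes, stay near 0.

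No cKO array lies on slide 2, so that slide and genotype overlap in part. Within slide 1, the cKO mean minus control array 1 was positive for 30 of the 33 members, with a median of 0.35, and all 3 cKO arrays lay above control array 1 for 26 members (29.2% of all tested probes). These differences rest on 1 control array and carry no test. In limma with the slide as a term, 2 members had an unadjusted p under 0.05, Pfkfb4 (difference 1.18, adjusted p = 0.486) and Pdk1 (difference 0.96, adjusted p = 0.645), where 4.67% of all tested probes were higher at that threshold. The part of the slide in the members' differences cannot be told apart beyond these values.

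Promoters were examined for the letters of the hypoxia response element, since many of the members are known targets of Hif1a. The RefSeq table (GRCm38.p6) gives 300 bases around the start, 250 of them before it, for 32 of the 33 members. Slc2a3 has no entry there. The core was searched as ACGTG or GCGTG on both strands. It occurred in at least 1 promoter of 29 members (90.6%), of 67.3% of the 9263 genes with a tested probe and an entry, and of 46.7% of all 27025 genes in the table. Per promoter, it was in 37 of 45 (82.2%) for the members and in 61.5% of the promoters of genes with a tested probe. The E-box CACGTG, which contains ACGTG on both strands and so counts as 2 cores, occurred in promoters of 6 members (18.8%) and of 11.9% of the genes with a tested probe. Of the members at an unadjusted p under 0.05, 21 of 23 held the core, and of the others 8 of 9. Ldha, whose levels were not higher in cKO, had the most cores, 7 in one promoter. A match describes the letters of the window, and binding was not measured. The stretches of 250 bases before the start are shown for the member with the smallest p (Pfkfb4, chr9:108991652-108991901, plus strand), a hypoxia target with 5 cores (Bnip3, chr7:138909507-138909756, minus strand), the main glucose transporter (Slc2a1, chr4:119108495-119108744, plus strand) and the promoter of Ldha with 5 of its 7 cores in this stretch (chr7:46845554-46845803, plus strand). Capitals mark the core on either strand.

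Pfkfb4 promoter: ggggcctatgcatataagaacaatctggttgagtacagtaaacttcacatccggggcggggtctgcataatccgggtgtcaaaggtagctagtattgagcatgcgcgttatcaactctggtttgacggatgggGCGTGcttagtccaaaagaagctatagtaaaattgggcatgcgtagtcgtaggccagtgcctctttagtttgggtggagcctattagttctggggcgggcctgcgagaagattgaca
Bnip3 promoter: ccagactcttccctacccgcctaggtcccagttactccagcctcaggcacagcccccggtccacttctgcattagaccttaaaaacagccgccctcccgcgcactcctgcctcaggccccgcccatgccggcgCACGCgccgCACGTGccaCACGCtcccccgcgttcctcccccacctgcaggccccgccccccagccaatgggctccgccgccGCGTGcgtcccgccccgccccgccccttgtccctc
Slc2a1 promoter: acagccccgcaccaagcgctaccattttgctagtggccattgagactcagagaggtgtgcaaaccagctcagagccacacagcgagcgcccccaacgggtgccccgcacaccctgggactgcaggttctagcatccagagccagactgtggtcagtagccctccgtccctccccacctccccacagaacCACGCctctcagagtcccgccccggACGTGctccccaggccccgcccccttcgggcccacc
Ldha promoter: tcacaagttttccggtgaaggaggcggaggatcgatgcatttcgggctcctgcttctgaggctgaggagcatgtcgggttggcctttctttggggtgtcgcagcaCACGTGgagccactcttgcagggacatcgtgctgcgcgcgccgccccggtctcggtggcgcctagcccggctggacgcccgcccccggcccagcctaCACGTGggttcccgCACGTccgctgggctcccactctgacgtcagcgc

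The single core of Pfkfb4 begins 117 bases before the start, and those of Slc2a1 begin 61 and 36 bases before it.

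Genes around the members were read in the same way, each from its brightest probe, and 0 of the 100 tested genes of these lists had an adjusted p under 0.05. At an unadjusted p under 0.05, 28 were higher and 2 lower, where 11.7% and 11.3% of all tested probes were. In the list of other hypoxia pathway genes, all 28 were tested, 15 were higher in cKO and 0 lower at an unadjusted p under 0.05, and the median difference was 0.55. Epas1, which encodes the second oxygen-regulated factor HIF-2α, had a difference of 1.37 ± 0.27 (adjusted p = 0.0994). The collagen lysyl hydroxylases Plod2 and Plod1 had differences of 0.59 ± 0.12 and 0.61 ± 0.14 (adjusted p = 0.1 and 0.122). Hif1an, the asparaginyl hydroxylase that blocks the activity of Hif1a and a known target of miR-31 in other tissues, had a difference of 0.04 ± 0.13 (95% confidence interval −0.27 to 0.35, adjusted p = 0.872).

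Further sugar pathways gave a mixed picture. Of the 20 further glycolysis isoforms and transporters, 11 were tested. At an unadjusted p under 0.05, 4 were higher and 1 was lower, where 11.7% and 11.3% of all tested probes were. The smallest p values were those of the glucose transporter Slc2a8 (difference 1.12), the D-lactate dehydrogenase Ldhd (1.08) and the insulin-responsive transporter Slc2a4 (1.04). Their adjusted p was 0.122, 0.152 and 0.154. Slc2a4 was well above background on only 3 of the 6 arrays, the fewest the filter allows, so it could pass through 1 group alone. Its levels were −5.05, −5.33 and −4.33 in cKO and −6.05, −6.24 and −5.57 in control. At levels this low, its difference is not read as a result. In glycogen metabolism, 4 of 9 tested genes were higher and 0 lower at an unadjusted p under 0.05, among them the liver glycogen phosphorylase Pygl (1.34 ± 0.39) and the branching enzyme Gbe1 (1.28 ± 0.40), with adjusted p of 0.154 and 0.168. Of 3 tested gluconeogenesis genes, Pck2, the mitochondrial form of phosphoenolpyruvate carboxykinase, had a difference of 0.80 ± 0.21 and the glucose phosphatase subunit G6pc3 one of 0.29 ± 0.09.

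Pathways that carry carbon elsewhere were also read. None of the 9 tested pentose phosphate genes had an unadjusted p under 0.05, and their median difference was −0.04. Of 25 genes of pyruvate entry and the TCA cycle, 20 had a negative difference, with a median of −0.13. In that list, Dlat, a pyruvate dehydrogenase subunit, was higher at an unadjusted p under 0.05 (0.56 ± 0.15). The 3 tested genes among the other pyruvate dehydrogenase kinases and phosphatases had a median of −0.03. Among the regulators of glycolysis through mTORC1 and MYC, 2 of 12 tested genes were higher at an unadjusted p under 0.05, a share near the 11.7% of all tested probes, and the median difference was −0.06. These were Sesn2, a stress-induced inhibitor of mTORC1 (0.85 ± 0.24), and Eif4ebp1, a translation repressor that mTORC1 inactivates (0.80 ± 0.24). Myc, the transcription factor that raises glycolytic genes in activated T cells, had a difference of −0.48 ± 0.25 with every cKO array below every control array (adjusted p = 0.29).

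**Figure D4:**
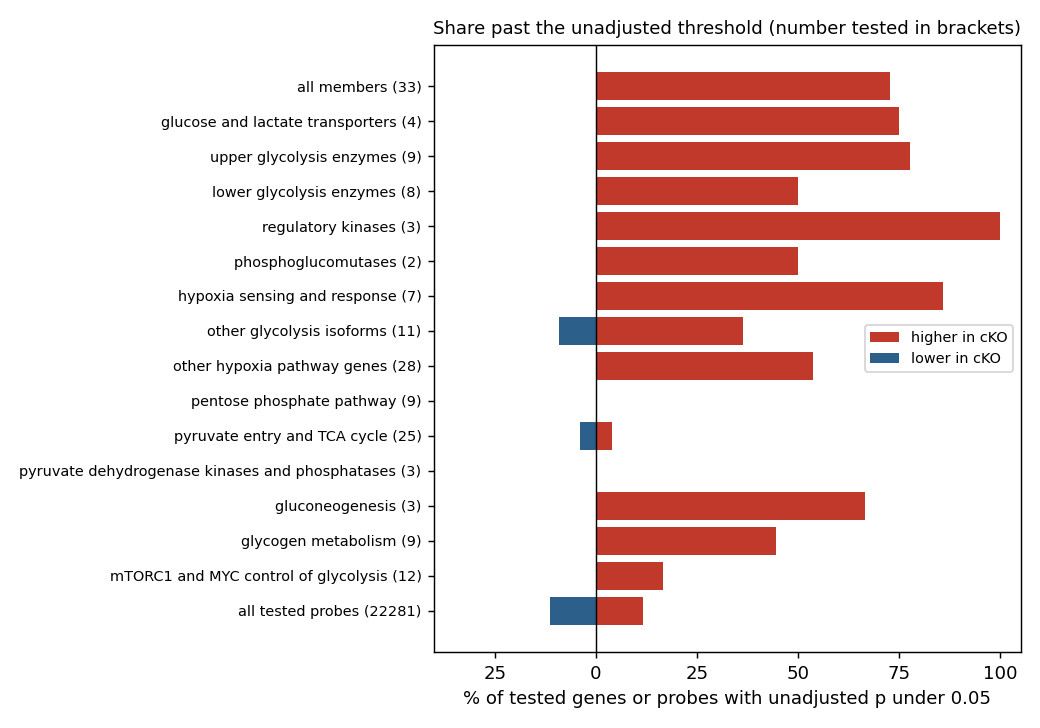
Share of the tested genes of each list with an unadjusted p under 0.05 in limma, higher in cKO to the right and lower to the left, with the number tested in brackets. All members (24 of 33) and other hypoxia pathway genes (15 of 28) extend far to the right, the pentose phosphate list has 0 of 9, and the bottom bar gives all tested probes (11.7% and 11.3%).

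The defining T cell markers Cd3e, Cd3g, Cd4, Cd5 and Lck were well above background on all 6 arrays, and the summed level of this list relative to the 75th percentile was 153 to 177 in cKO and 149 to 155 in control. These markers went both ways, since Cd3g (difference 0.74, adjusted p = 0.176) and Cd4 (0.67, adjusted p = 0.172) lay above the controls on all cKO arrays, Cd3e (−0.27, adjusted p = 0.18) lay below them, and Cd5 and Lck overlapped. Foxp3, the defining factor of regulatory T cells, had levels of 3.23, 3.19 and 2.53 in cKO and 3.48, 3.48 and 3.81 in control, a difference of −0.61 ± 0.22 (adjusted p = 0.191). Foxp3 was thus lowest on cKO array 3 and highest on control array 3, the arrays on which most members were highest and lowest. The other 4 markers of the iTreg list did not share one direction. Ctla4, an inhibitory receptor, had levels of 0.63, 1.02 and 1.23 in cKO and 0.30, 0.17 and −0.42 in control, with cKO above (difference 0.94, adjusted p = 0.137). The groups overlapped for Il2ra (−0.55), Tnfrsf18 (0.41) and Itgae (0.85), and the summed level of the list was 188 to 213 in cKO and 145 to 192 in control. Most of that sum was Tnfrsf18 alone, at 130 to 173 in cKO and 87.9 to 138 in control. The part of these markers in the members' differences was not tested. Of the other cell types, summed levels were 0.571 to 1.33 in cKO and 0.396 to 0.654 in control for 5 B cell markers (Pax5 never above background), and 0.147 to 0.157 and 0.12 to 0.328 for 5 myeloid markers (Emr1 never above background). For 4 erythroid markers the sums were 0.503 to 1.10 and 0.202 to 0.398, which did not overlap, and the 1 tested gene was Hbb-b1 (difference 2.10, adjusted p = 0.164, cKO above control). Hba-a1, well above background on 2 of the 6 arrays and not tested, lay the other way, at −5.08, −5.04 and −6.50 in cKO and −4.01, −3.73 and −3.27 in control, and Alas2 was never above background. For 5 epithelial markers they were 1.38 to 2.06 and 0.851 to 0.945, which did not overlap either. Of the 3 tested, Cdh1 (difference 1.02, adjusted p = 0.138) and Epcam (0.62, adjusted p = 0.155) were higher in cKO at an unadjusted p under 0.05, as were most members, while Krt8 and Krt19 were never above background. For the 2 CD8 markers the sums were 4.06 to 4.57 and 4.62 to 5.82, with cKO below. Each marker by itself overlapped between the groups, Cd8a (difference −0.86, adjusted p = 0.255) and Cd8b1 (−0.17, adjusted p = 0.565). The part of these cells in the members' differences was not tested.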

How the data were processed

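RNA of 6 iTreg cultures was labelled with Cy3 and read on one-colour Agilent arrays. The authors deposited each spot's processed signal as a linear intensity, background-subtracted within the array and not normalized between arrays, together with a table of log2 values (medians 6.15, normalization not stated). Feature Extraction is given as version 9.1 in the submitters' processing notes and 10.7.3.1 in the file headers. The labels give 40 ng ml−1 IL-2 and the methods another dose, and they name different RNA kits.

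Here, flagged spots were dropped, spots of a probe averaged, and log2 values scaled to each array's 75th percentile over probes. Probes well above background on at least 3 arrays (22281) were tested with limma 3.58.1 (R 4.3.3), and p-values were adjusted over all of them by Benjamini-Hochberg. The limma fit and the adjustment were tested on simulated data, and the other steps were not. No list was tested as a set. The number of arrays limits the precision, and p-values measure the spread between these cultures. Symbols and positions (mm9) follow the array's annotation, which gives no exon or intron. Sequences are RefSeq's, GRCm38.p6. Values on every array are given for members with an unadjusted p under 0.05 and groups that do not overlap, for the oxygen sensors and for rate-limiting steps. In the other lists at most the 3 genes with the smallest p, Hif1an and Myc are named. Some genes that this rule names are not reported here. The members, lists and tests were chosen with earlier results of these data known.

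Alternatives were the authors' table, scaling to the median, quantile normalization, normexp (offset 50) followed by quantiles or by the 75th percentile, other filters, the methods' t-test, a trended robust fit (statmod 1.5.0), array weights, the replicate number or slide as a term, each array left out, the mean over a gene's probes and an adjusted p under 0.10. Taking the percentile over spots and leaving out both arrays 3 were added after seeing the data. Tables and plots were made with Python 3.11.15, pandas 2.3.3, numpy 2.4.6 and matplotlib 3.10.9.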

Additional observations from a re-analysis of the deposited data

How the results depend on the processing

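The median difference of the members was positive in every alternative run, from 0.29 to 0.62. Normexp before the 75th percentile gave 0.29, a slide term or slide 1 alone 0.35, leaving out both arrays 3 gave 0.32, and leaving out one array gave 0.37 (control array 3) to 0.62. No member was lower at an unadjusted p under 0.05 in any alternative. The number that were higher, 24, was 6 under normexp before the 75th percentile (4.99% of all tested probes). It was 13 by the methods' t-test (9.44%), 2 under the slide term (4.67%) and 12 when both arrays 3 were left out (8.71%). When one array was left out it was 12 to 25, with 7.66% to 14.2% of all tested probes. It was then 12 without cKO array 2, 14 without cKO array 3 and 13 without control array 3. Pfkfb4 was the 1 member to pass an adjusted p under 0.05 in any alternative, with array weights (0.0345) and when each probe had to exceed background everywhere (0.0471), and the 1 member under 0.10 in the main setting (0.069). Its adjusted p ran from 0.0345 to 0.486 over the alternatives. Weighting let 2 related genes pass, Epas1 (0.0481) and Plod2 (0.0465).

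The 29 probes of the whole array with an adjusted p under 0.05 became 115 under normexp before quantile normalization, 79 when scaled to the median, 467 at an adjusted p under 0.10, 656 with array weights, 98 in a trended robust fit, 175 when each probe had to exceed background everywhere and 54 when the percentile was taken over spots. The count was 0 under normexp before the 75th percentile, without a filter, by the methods' t-test, under the slide term and when both arrays 3 were left out, and 0 to 1 when one array was. At an unadjusted p under 0.05, 1040 probes were higher and 600 lower in limma under the slide term, and 2103 and 1941 by the methods' t-test.

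Replicate numbers occur in both groups, but same-numbered arrays did not deviate together (r = −0.14, 0.01 and −0.19), and 0 of the 3 cKO arrays correlated best with the control of their own number. With the replicate number as a block, 14 members were higher at an unadjusted p under 0.05 (9.03% of all tested probes). In that fit, 0 members and 0 probes of the whole array had an adjusted p under 0.05.

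Of the 33 members, 28 had the same sign in all 22 settings. Under normexp before the 75th percentile, Pfkl (−0.10), Tpi1 (−0.06), Pgam1 (−0.12) and Eno1 (−0.07) turned negative. Pfkl ranged from −0.03 to 0.25 when one array was left out. Pgm1 was −0.02 with array weights, −0.07 under the slide term and in slide 1 alone, −0.14 without both arrays 3, and −0.11 to 0.18 when one array was left out. Hif1an was −0.08 with array weights, −0.11 without both arrays 3, and −0.07 to 0.10 when one array was left out. The causes were not tested.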
